A study of Mus musculus with 11 samples.

Results

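miR-210-3p and miR-34a-5p, a hypoxia-induced and a p53-induced microRNA (miRNA), were measured in macrophages sorted from the mouse heart before and after injury. Both members were taken by name (mmu-miR-210-3p and mmu-miR-34a-5p in the array's own annotation) from the gene-level scanner files and are 2 of the 1247 miRNAs on the array. Cardiac macrophages were sorted as GFP-positive cells from Cx3cr1GFP/+ knock-in mice 2 to 3 months old, in which 1 copy of the fractalkine receptor gene carries GFP, also in the controls. RNA was hybridised to 11 Cy3 miRNA arrays. Ly6clow/CX3CR1high macrophages came from uninfarcted hearts of animals that had no operation, here called day 0 (2 arrays). The same population was sorted 7 days (3 arrays) and 30 days (3 arrays) after cryoinjury, a freezing lesion used as a model of myocardial infarction. Ly6chigh/CX3CR1low macrophages were sorted 3 days after cryoinjury (3 arrays) only; whether a day 3 difference belongs to the stage or to the population therefore cannot be told apart. The controls had no sham operation, so that surgery and injury cannot be told apart either. The question behind the comparisons was how macrophage miRNAs differ between the steady state and the stages after injury.

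As background, miR-210-3p is the miRNA most regularly induced by low oxygen: the hypoxia-inducible factor HIF-1 switches on its gene, and the miRNA represses the iron-sulfur cluster assembly protein ISCU and other mitochondrial proteins. miR-34a-5p is transcribed under p53 and slows the cell cycle by repressing cyclin, CDK, BCL2 and SIRT1 transcripts; it is also known for a role in cardiac ageing. A miRNA finds its targets mainly through its seed, the bases near its 5′ end.

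The mature sequences are shown because the seed decides which transcripts a miRNA can pair with, and so which other miRNAs on the array could share its targets. They were taken from RefSeq's annotation of mouse build GRCm38.p6, which held both members, and are printed 5′ to 3′ with the seed (bases 2 to 8) in capitals.
miR-210-3p: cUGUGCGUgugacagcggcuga
miR-34a-5p: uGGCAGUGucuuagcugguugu
miR-34b-5p: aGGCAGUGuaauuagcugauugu
miR-449a-5p: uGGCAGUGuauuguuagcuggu
miR-449c-5p: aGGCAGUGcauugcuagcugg
The search of that table for shared seeds did not cover every chromosome, and the table held no entry for miR-34c-5p. Within these limits no other mature miRNA shared the seed of miR-210-3p. The other 3 sequences are those found to share the seed of miR-34a-5p. All 3 had a probe on the array: miR-449a-5p and miR-449c-5p were detected on 0 of 11 arrays, and miR-34b-5p was detected on the 3 day 30 arrays and no other. Of these 4 miRNAs with one seed, miR-34a-5p alone was detected on the day 0, day 3 and day 7 arrays.

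Each member is 1 arm of a hairpin, shown with the measured arm in capitals because the other arm also had a probe.
Mir210: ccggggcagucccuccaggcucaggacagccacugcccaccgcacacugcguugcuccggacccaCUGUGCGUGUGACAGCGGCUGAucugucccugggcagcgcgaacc
Mir34a: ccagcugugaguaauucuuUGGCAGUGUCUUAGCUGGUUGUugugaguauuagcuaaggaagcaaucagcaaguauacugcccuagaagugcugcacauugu
The Mir210 hairpin lies at chr7:141221384-141221493 on the minus strand, 2726 bases from Rassf7, the nearest gene at lower coordinates. The Mir34a hairpin lies at chr4:150068454-150068555 on the plus strand, between the non-coding gene Gm13067 (9737 bases away) and Gpr157 (18948 bases away). Neither hairpin overlapped another gene of the RefSeq table. The opposite arms, miR-210-5p and miR-34a-3p, were detected on 0 of 11 arrays, so that each hairpin gave a detected signal from the measured arm only.

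The arrays differed in brightness, which bears on every value below. A set of 126 miRNAs was detected on every array and is called the shared miRNAs here. Their 75th percentile lay between 55.7 and 163 scanner units on the day 0 arrays and between 114 and 323 on those of day 7. It was far higher on the day 3 arrays (805 to 1607) and the day 30 arrays (1453 to 2304). Levels are therefore given as log2 signal relative to this percentile of the same array, with the mean and SD taken over samples, and a change is the difference between 2 group means. Over the arrays this percentile spanned 41.4-fold, whereas the array's dmr control features spanned 2.16-fold, so that scaling to the controls gives other changes. Why the 2 spans differ was not tested. The replicates are described as independent biological ones, but for the typical miRNA the arrays of day 30 replicates 2 and 3 were closer together than the scanner's own error alone would place them. Their mean was used as 1 sample, so that n = 2 at day 0 and day 30 and n = 3 at day 3 and day 7. The few samples limit the precision. Since RNA was pooled over the sorted cells, fewer cells with a miRNA and less of it per cell cannot be told apart.

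miR-210-3p was highest in the Ly6chigh/CX3CR1low macrophages of day 3. Its scaled log2 signal was -2.62, -2.56 and -3.02 on the 3 day 3 arrays. It was -3.74, -4.42 and -3.92 at day 7 and -4.21, -3.90 and -3.87 at day 30. In uninjured hearts it was -4.89 on replicate 1 and -5.31 on replicate 2, where it was not detected, so that this last value is background. All 3 day 3 arrays thus lay above all other arrays, and both day 0 arrays lay below all others. Day 7 and day 30 overlapped. In raw scanner units miR-210-3p gave 136 to 198 on the day 3 arrays and 97.0 to 125 on the day 30 arrays, but 5.33 to 24.1 on those of day 7 and 1.40 to 5.52 on those of day 0. The scanner's own error was 7.35% to 21.4% of the signal on the 10 arrays with detection.

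**Figure D1:**
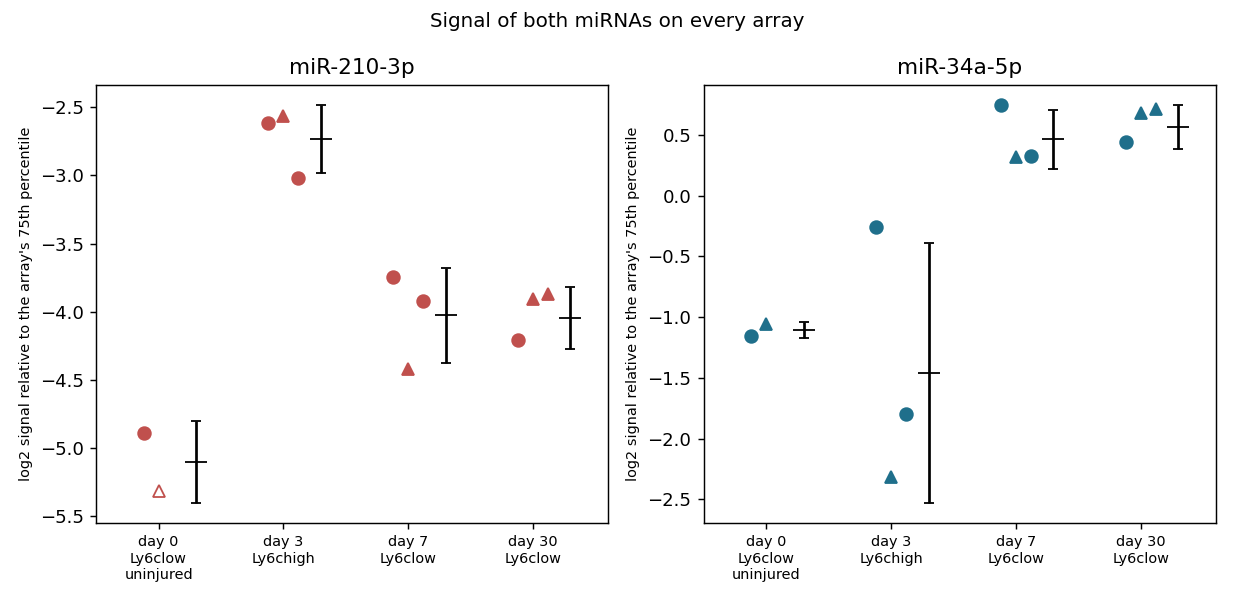
Log2 signal of miR-210-3p (left) and miR-34a-5p (right) relative to the array's 75th percentile, by group; points are arrays (circles slide 1, triangles slide 2, hollow where not detected) and bars are mean ± SD over samples, with day 30 replicates 2 and 3 averaged. miR-210-3p peaks at day 3, with a mean of -2.73, whereas miR-34a-5p is higher at day 7 and day 30, with means of 0.46 and 0.57, than at day 0 and day 3.

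The 4 groups differed in miR-210-3p (limma F test, adjusted p = 0.00268); 78.9% of the 369 tested miRNAs passed this test, so that passing it does not set the miRNA apart. From day 0 (-5.10 ± 0.30, n = 2) to day 3 (-2.73 ± 0.25, n = 3) miR-210-3p rose by 2.37 on the log2 scale, 5.16-fold (SE 0.42, limma adjusted p = 0.00127). In this comparison 16.3% of tested miRNAs were called higher, and the groups did not overlap for 65.6%. With the lowest detected signal of replicate 2 in place of its background value the rise was 2.27. At day 7 (-4.03 ± 0.35, n = 3) miR-210-3p was again lower than at day 3, by a log2 change of -1.29, 2.45-fold (SE 0.38, limma adjusted p = 0.0177; 16% of tested miRNAs were called lower, and 64.2% did not overlap). At day 30 (-4.05 ± 0.23, n = 2) the change from day 3 was -1.32 (SE 0.42, limma adjusted p = 0.0343; 21.1% called lower, 74.5% without overlap).

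On the scaled values the Ly6clow/CX3CR1high groups differed somewhat less from each other in miR-210-3p than from day 3. This depended on the scaling. Without it day 30 lay nearer to day 3 (-0.48) than to day 7 (3.16) or day 0 (5.10). Day 7 lay above day 0 by 1.07 (95% interval 0.16 to 1.98, limma adjusted p = 0.121) and day 30 by 1.05 (0.06 to 2.05, adjusted p = 0.0655), without overlap of the groups but without passing the test; the groups did not overlap for 19.5% and 78.3% of tested miRNAs. Day 30 and day 7 differed by -0.02, with an interval from -0.93 to 0.89 (limma adjusted p = 0.970). The order was thus day 3, day 7, day 30 and day 0, in which day 3 and day 7 differed beyond their spread and the other neighbours did not pass the test. The rise at day 3 kept its call when any single array was left out (adjusted p between 0.000653 and 0.00844). It lost the call with array brightness as a covariate (1.76, limma adjusted p = 0.119).

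The calls of miR-210-3p after day 3 were less firm. The fall from day 3 to day 7 no longer passed limma when any of 4 arrays was left out: leaving out day 3 replicate 1 gave -1.24 (adjusted p = 0.0658), day 3 replicate 2 gave -1.21 (0.069), day 7 replicate 2 gave -1.10 (0.0533) and day 7 replicate 3 gave -1.35 (0.0534). The fall from day 3 to day 30 no longer passed limma when any of 4 arrays was left out: leaving out day 3 replicate 1 gave -1.26 (adjusted p = 0.101), day 3 replicate 2 gave -1.23 (0.114), day 7 replicate 3 gave -1.32 (0.058) and day 30 replicate 1 gave -1.15 (0.253). Without scaling between arrays this fall was -0.48 (limma adjusted p = 0.575), and day 30 lay above day 7 by 3.16 (adjusted p = 0.00271). Day 7 passed as higher than day 0 without day 0 replicate 1 (1.29, limma adjusted p = 0.0346) or day 7 replicate 2 (1.27, adjusted p = 0.0422). Day 30 passed as higher than day 0 without day 0 replicate 1 (1.26, limma adjusted p = 0.0289) or day 7 replicate 2 (1.05, adjusted p = 0.0498).

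miR-34a-5p was detected on all 11 arrays and had another pattern, higher in the Ly6clow/CX3CR1high macrophages of day 7 and day 30. Its scaled log2 signal was -1.15 and -1.06 at day 0. At day 3 it was -0.26, -2.32 and -1.80. At day 7 it was 0.75, 0.32 and 0.33, and at day 30 it was 0.44, 0.68 and 0.71. Every array of day 7 and day 30 lay above every array of day 0 and day 3, and the 3 day 3 arrays spanned both day 0 arrays. Against day 3 the groups did not overlap for 64.2% of tested miRNAs at day 7 and 74.5% at day 30. Against day 0 they did not overlap for 19.5% at day 7 and 78.3% at day 30. The spread at day 3 (SD 1.07) exceeded that of the other groups (SD 0.07 to 0.24). The scanner's own error was 7.76% to 9.86% of the signal on the 11 arrays. In raw units miR-34a-5p gave 26.7 to 73.5 on the day 0 arrays, 162 to 804 on those of day 3, 142 to 541 on those of day 7 and 2325 to 3126 on those of day 30, so that before scaling day 3 and day 7 overlapped.

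The groups differed in miR-34a-5p (limma F test, adjusted p = 0.00753, against the same 78.9% of tested miRNAs). From day 3 (-1.46 ± 1.07, n = 3) to day 7 (0.46 ± 0.24, n = 3) miR-34a-5p rose by 1.92, 3.79-fold (SE 0.49, limma adjusted p = 0.00976; 21.1% of tested miRNAs were called higher). To day 30 (0.57 ± 0.18, n = 2) it rose by 2.02, 4.07-fold (SE 0.55, limma adjusted p = 0.0164; 9.76% called higher). Against day 0 (-1.11 ± 0.07, n = 2) miR-34a-5p was higher at day 30 by 1.67, 3.19-fold (SE 0.60, limma adjusted p = 0.0307; 8.94% called higher). At day 7 it lay above day 0 by 1.57 (95% interval 0.38 to 2.76) without passing (limma adjusted p = 0.121; 3.25% called higher). The groups did not overlap, as for 19.5% of tested miRNAs.

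Day 3 and day 0 did not differ beyond their spread in miR-34a-5p (-0.35, 95% interval -1.54 to 0.84, limma adjusted p = 0.616), nor did day 30 and day 7 (0.10, -1.09 to 1.29, adjusted p = 0.893). Its order was day 30, day 7, day 0 and day 3, in which no pair of neighbours passed the test. The rise to day 7 no longer passed limma without day 3 replicate 2 (1.49, adjusted p = 0.0539) or with brightness as a covariate (1.99, adjusted p = 0.157), and it turned negative without scaling between arrays (-0.42, adjusted p = 0.655). Without scaling, day 3 lay above day 0 by 3.14 (limma adjusted p = 0.00657) and day 30 above day 7 by 3.28 (adjusted p = 0.0057). That to day 30 lost its call when any of 3 arrays was left out: leaving out day 3 replicate 2 gave 1.60 (limma adjusted p = 0.0768), day 3 replicate 3 gave 1.85 (0.0516) and day 30 replicate 1 gave 2.15 (0.105). The difference between day 30 and day 0 no longer passed limma with day 0 replicate 1 (1.63, adjusted p = 0.0553), day 0 replicate 2 (1.72, 0.0763) or day 30 replicate 1 (1.80, 0.0884) left out, or with brightness as a covariate (1.55, adjusted p = 0.576).

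**Figure D2:**
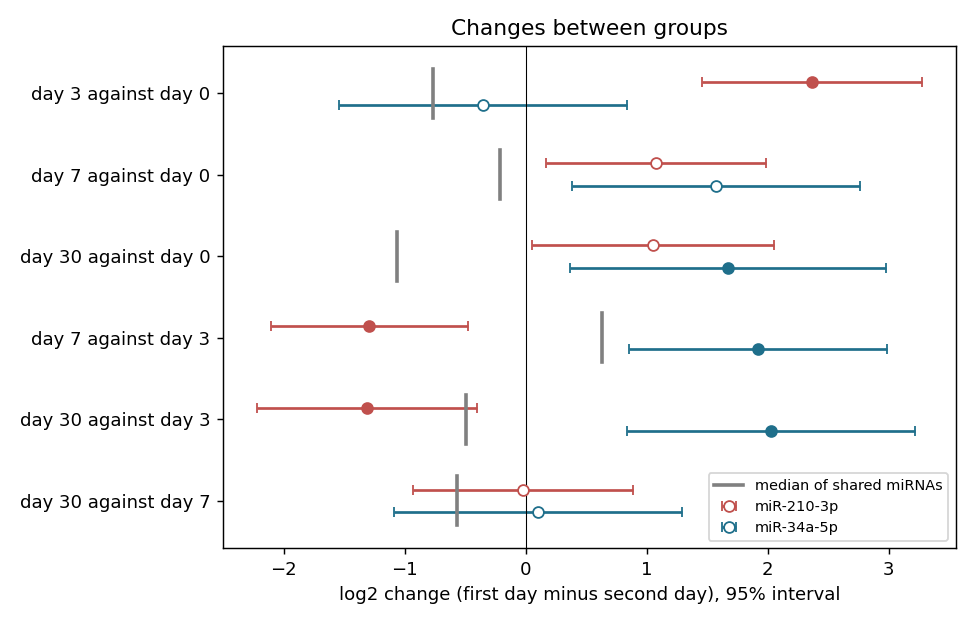
Log2 change between groups (first day minus second day) with its 95% interval from limma for miR-210-3p (red) and miR-34a-5p (blue), filled where the adjusted p is under 0.05; grey bars are the median change of the 126 shared miRNAs. From day 3 to day 7 and to day 30 miR-210-3p fell by 1.29 and 1.32 while miR-34a-5p rose by 1.92 and 2.02; without scaling the 1.92 becomes -0.42.

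On the scaled values the members moved in opposite directions from day 3 to day 7 and day 30, whereas without scaling both were lower at day 7 (miR-34a-5p by -0.42, which did not pass). Their difference within each array, in which the brightness of the array cancels, does not depend on this choice except on day 0 replicate 2. There the undetected miR-210-3p value was raised to the floor (the lowest value allowed) when no scaling was used. The log2 signal of miR-210-3p minus that of miR-34a-5p was -2.36, -0.25 and -1.22 on the day 3 arrays. It was -3.73 and -4.25 at day 0, the second with miR-210-3p undetected. It was -4.49, -4.74 and -4.25 at day 7 and -4.65, -4.58 and -4.58 at day 30. The lowest day 3 array lay 1.38 above the highest of the 7 samples of the other groups, whose values ranged from -4.74 to -3.73. The 4 groups differed (exact permutation test of the F statistic, which has no direction, p = 0.00556 over 25200 assignments of 10 samples), and the p stayed between 0.00556 and 0.0194 when any single array was left out. A pair of groups alone could not reach 0.05, since the smallest exact p for 3 against 3 samples or for 2 against 3 is 0.1. This difference shows unequal change of the members and does not compare their amounts, since their probes need not respond alike. How many other pairs of miRNAs would pass the exact test was not counted. Of the 369 tested miRNAs 78.9% passed the F test across the 4 groups, so that passing does not set these members apart.

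**Figure D3:**
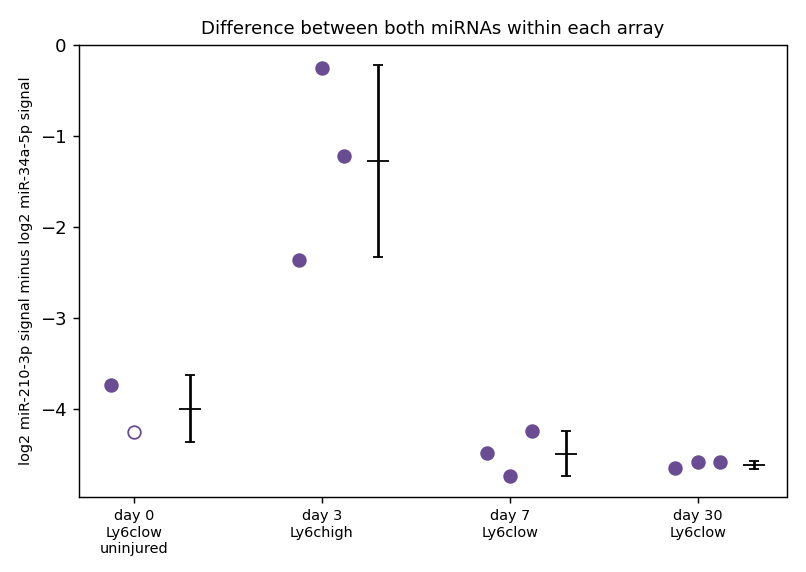
Log2 signal of miR-210-3p minus log2 signal of miR-34a-5p within each array, by group, a quantity in which the brightness of the array cancels; points are arrays, hollow where miR-210-3p was not detected, and bars are mean ± SD over samples. The day 3 arrays, with a mean of -1.27, lie above all others, whose group means are -3.99, -4.49 and -4.61.

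On the scale used here the 126 shared miRNAs had a median change other than 0, and each member was also read against it. miR-210-3p exceeded this median by 3.13 from day 0 to day 3, where the median was -0.77. It lay 1.93 below it from day 3 to day 7 (median 0.63) and 0.82 below it from day 3 to day 30 (median -0.49). miR-34a-5p exceeded the median by 1.29 from day 3 to day 7 and by 2.52 from day 3 to day 30, and by 1.78 and 2.74 from day 0 to day 7 (median -0.21) and to day 30 (median -1.06). From day 0 to day 7 and day 30 miR-210-3p lay 1.29 and 2.12 above the median. Against this median day 30 lay above day 7 in both members, by 0.54 for miR-210-3p and 0.67 for miR-34a-5p (median -0.57).

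The rank of each member within its array, which no scaling by 1 factor per array can change, gave the same highest and lowest groups for miR-210-3p. At day 3 miR-210-3p stood above 44.4% to 48.4% of the miRNAs detected on all arrays, at day 30 above 32.5% to 34.1%, at day 7 above 7.14% to 19.8% and at day 0 above 0% to 4.76%. By rank, unlike by scaled signal, day 30 and day 7 did not overlap. miR-34a-5p stood above 76.8% to 83.2% of them at day 7 and 80.8% to 84% at day 30, against 60% to 66.4% at day 0 and 49.6% to 72% at day 3. These ranks carry no test.

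**Figure D4:**
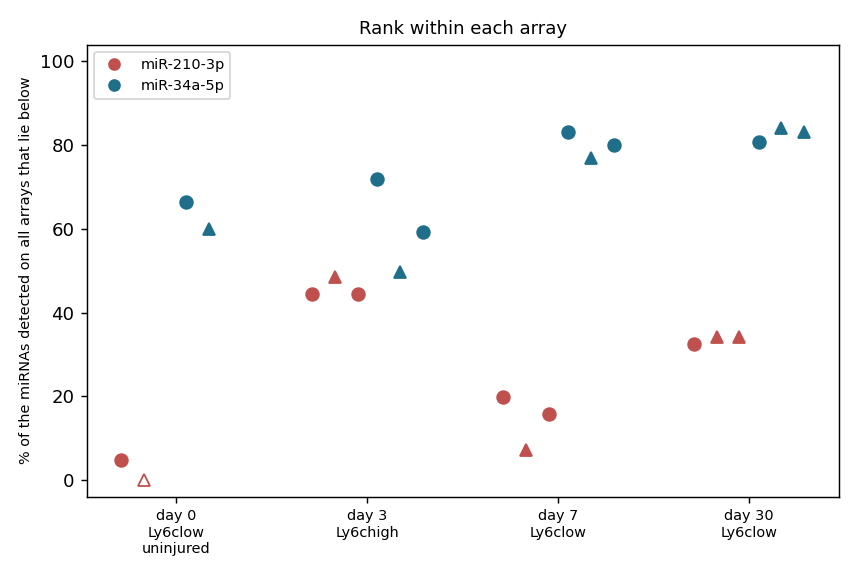
Share of the miRNAs detected on all arrays that lay below each member on the same array, in percent, by group; points are arrays (circles slide 1, triangles slide 2, hollow where not detected). miR-210-3p (red) ranks highest at day 3, above 44.4% to 48.4%, and miR-34a-5p (blue) at day 7 and day 30, above 76.8% to 84%.

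The arrays lay on 2 slides, and slide 2 held the dimmer arrays of each group. With slide as a block the calls of both members were kept and 1 was gained, day 30 above day 0 in miR-210-3p (1.05, limma adjusted p = 0.0467). Within slides 1 and 2 the rise of miR-210-3p from day 0 to day 3 was 2.07 and 2.75 (2.35 with the block). Its change from day 3 to day 7 was -1.01 and -1.85 (-1.29 with the block) and to day 30 it was -1.39 and -1.32 (-1.30 with the block). miR-34a-5p rose from day 3 to day 7 by 1.56 and 2.64 (1.92 with the block) and to day 30 by 1.47 and 3.01 (2.08 with the block). It lay above day 0 by 1.59 and 1.75 at day 30 (1.67 with the block) and by 1.69 and 1.38 at day 7 (1.51 with the block). Its change from day 0 to day 3 differed in sign between the slides, at 0.12 and -1.26 (-0.41 with the block), and so did the change from day 7 to day 30, at -0.10 and 0.37 for miR-34a-5p (0.16 with the block) and -0.38 and 0.53 for miR-210-3p (-0.0026 with the block). From day 0, miR-210-3p changed by 1.06 and 0.90 to day 7 (1.05 with the block) and by 0.68 and 1.43 to day 30.

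The pattern of miR-210-3p over the 10 samples was most like that of miR-93-5p (Pearson r = 0.957), miR-425-5p (0.947), let-7i-5p (0.923), miR-130b-3p (0.919) and miR-98-5p (0.91), out of 221 miRNAs detected on at least 8 of 11 arrays. miR-93-5p, a member of the Myc-driven miR-106b cluster, was -2.99 ± 0.21 at day 0, -0.50 ± 0.13 at day 3, -2.25 ± 0.38 at day 7 and -2.36 ± 0.10 at day 30, the order of groups found for miR-210-3p. miR-130b-3p was undetected on both day 0 arrays and highest at day 3 (-2.60 ± 0.23). For miR-34a-5p the likeness was weaker. The nearest were miR-23b-3p (r = 0.841), miR-199a-5p (0.731), miR-199a-3p (0.708), miR-146a-5p (0.701) and miR-5100 (0.63). miR-23b-3p was -0.86 ± 0.42 at day 0, -0.85 ± 0.10 at day 3, -0.05 ± 0.19 at day 7 and -0.0044 ± 0.10 at day 30, and it passed the test in none of the 6 comparisons. miR-146a-5p, which NF-kappaB induces and which represses IRAK1 and TRAF6, shared the low day 3 (-4.62 ± 1.26) and the high day 30 (0.71 ± 0.29) but was -0.03 ± 0.49 at day 0, above its day 7 (-0.99 ± 0.68). These samples share the group, the slide and the brightness scaling, and r is given as a description. Between the members themselves r was -0.26 (Spearman rho -0.15).

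Other miRNAs placed under p53 by earlier work, together with other miR-34 and miR-449 miRNAs, some of them opposite arms, were read beside miR-34a-5p. Of 14 listed, all on the array, 5 passed the filter on detection and 9 did not. The relatives miR-34b-3p, miR-34c-5p, miR-34c-3p, miR-449a-5p, miR-449b and miR-449c-5p were detected on 0 of 11 arrays, as were miR-215-5p and miR-145a-5p. Of the 5, miR-34b-5p, miR-192-5p, miR-194-5p and miR-143-3p were undetected on every day 0 and every day 7 array, so that their changes against those groups are partly differences from background and no median over the list is given. miR-107-3p was the only one detected on all 11 arrays, at -1.32 ± 0.38 at day 0, -0.65 ± 0.06 at day 3, -1.51 ± 0.28 at day 7 and -0.78 ± 0.15 at day 30, and was called in none of the 6 comparisons. From day 3 to day 30, where miR-34a-5p rose, 0 of the 5 were called in limma (0 at an unadjusted p under 0.05). In that comparison 9.76% of all tested miRNAs were called higher and 21.1% lower. From day 3 to day 7, 1 of the 5 was called, against 16% of all tested miRNAs called lower: miR-192-5p, detected on 3 of 3 day 3 arrays and no day 7 array, was at least 2.42-fold lower (limma adjusted p = 0.0342), while miR-34a-5p rose. At day 30 miR-192-5p was at least 2.94-fold higher than at day 7 (limma adjusted p = 0.0193; 13.6% of all tested miRNAs were called higher). Against day 0 no measured member was called. Of all tested miRNAs 16.3% were called higher than day 0 at day 3, 3.25% at day 7 and 8.94% at day 30. The limma calls of miR-34b-5p and miR-143-3p as lower at day 3 and of miR-34b-5p as lower at day 30 started from the background of day 0. They were left out. At day 3 miR-34b-5p was undetected on all 3 arrays as well, so that its call there compared nothing measured. Of all tested miRNAs 39% were called lower than day 0 at day 3 and 47.4% at day 30. Unlike the counts of the lists, all shares over the tested miRNAs in this text keep calls that start from background. At day 7 against day 0, 0 of the 5 passed and 3 had an unadjusted p under 0.05, each of them undetected in both groups.

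Other miRNAs reported to respond to hypoxia were also read beside miR-210-3p. Of 14 listed, 13 passed the filter and miR-210-5p did not. From day 0 to day 3, where miR-210-3p rose, 2 of the 13 rose, against 16.3% of all tested miRNAs, so that the count does not set the list apart: miR-26b-5p by 1.66 (limma adjusted p = 0.0378) and miR-181b-5p by 1.23 (adjusted p = 0.0211, detected on 1 of 2 day 0 arrays). In the same comparison miR-181a-5p fell by 1.29 (adjusted p = 0.0219, with 39% of all tested miRNAs called lower) and 10 were not called. The median over the 13 was 0.16, the value of miR-181c-5p, which was undetected at day 0; over all tested miRNAs it was -0.79. From day 3 to day 7, where miR-210-3p fell, 3 of the 13 were lower, against 16% of all tested miRNAs: miR-26b-5p (-2.13, limma adjusted p = 0.0112), miR-27a-3p (-1.20, adjusted p = 0.0406) and miR-181c-5p (undetected at day 7 and at least 2.45-fold lower, adjusted p = 0.031). miR-199a-5p was higher (1.38, adjusted p = 0.0375; 21.1% of all tested miRNAs were called higher). The list's median was -0.48 there, against 0.61 over all.

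The later comparisons gave other counts for the hypoxia list. From day 3 to day 30, where miR-210-3p fell, 0 of the 13 were called in limma (2 at an unadjusted p under 0.05) and the median was 0.69 against -0.41 over all. In that comparison 9.76% of all tested miRNAs were called higher and 21.1% lower. From day 7 to day 30, where miR-210-3p changed by -0.02, 4 of the 13 rose: miR-26b-5p (2.83, limma adjusted p = 0.00284), miR-322-5p (2.01, adjusted p = 0.00161), miR-27a-3p (1.90, adjusted p = 0.00568) and miR-26a-5p (1.25, adjusted p = 0.0369); 13.6% of all tested miRNAs were called higher. From day 0 to day 30 miR-26b-5p alone rose (2.36, limma adjusted p = 0.012), and from day 0 to day 7 0 of the 13 were called (3 at an unadjusted p under 0.05, of which miR-181c-5p was undetected in both groups). Of all tested miRNAs 8.94% were called higher and 47.4% lower from day 0 to day 30. Only 3.25% were called higher from day 0 to day 7. Comparisons that share a group share its samples.

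Markers of the sorted cells and of other heart cells were read beside both members. The haematopoietic miRNAs miR-223-3p and miR-142a-3p were detected on all 11 arrays of the sorted cells. The summed log2 level of the 3 myeloid and leukocyte markers lay between 3.83 and 4.16 on the day 3 arrays, between 2.99 and 3.22 at day 30, between 1.97 and 2.84 at day 0 and between 1.26 and 1.84 at day 7. This sum is mostly miR-223-3p, which like miR-210-3p was highest at day 3 (3.87 ± 0.20, against 2.68 ± 0.08 at day 30). The other two markers had their highest mean at day 30, miR-142a-3p at 0.91 ± 0.43 (0.10 ± 0.53 at day 3) and miR-142a-5p at -1.70 ± 0.35 (-3.39 ± 0.52 at day 3). All 3 were called higher at day 3 than at day 0 (16.3% of all tested miRNAs were) and lower at day 7 than at day 3 (16% were), as miR-210-3p was. For miR-142a-5p, undetected at day 0, the rise to day 3 is a bound of at least 5.61-fold. None of the 3 was called between day 30 and day 3 (9.76% of all tested miRNAs were called higher, 21.1% lower). All 3 were called higher at day 30 than at day 7 (13.6% of all tested miRNAs were), where miR-210-3p changed by -0.02. Their part in the change of miR-210-3p was not tested. The 4 fibroblast and smooth muscle markers summed to between -4.10 and -3.31 on the day 0 arrays and between -3.69 and -3.33 on those of day 3, where miR-34a-5p was low, against -2.68 to -1.32 at day 7 and -2.51 to -2.44 at day 30, where it was high. Of these 4 miR-145a-5p was undetected on every array, 2 were detected on every day 7 array and 3 on every day 30 array. At day 0, 3 of the 4 were undetected on both arrays and miR-199a-3p was detected on 1 of 2, so that the day 0 sum is largely background. The markers did not move alike. miR-199a-3p, among the miRNAs most like miR-34a-5p, was high at both stages (-3.06 ± 0.38 at day 7 and -2.67 ± 0.03 at day 30, against -3.86 ± 0.20 at day 3). miR-214-3p was high at day 7 only (-3.42 ± 1.15) and lower at day 30 (limma change -3.09, adjusted p = 0.00175). From day 7 to day 30, 126 of the 369 tested miRNAs were called lower. miR-143-3p was undetected at day 7. The part of such cells in the change of miR-34a-5p was not tested. The 6 cardiomyocyte markers summed to between -2.87 and -1.92 on the day 0 arrays, with day 7 (-3.45 to -2.94), day 30 (-4.04 to -3.55) and day 3 (-5.23 to -4.44) below. At day 0 only miR-133a-3p and miR-133b-3p were detected and the other 4 were not, so that the day 0 sum is partly background. From day 0 to day 30 these 2 fell, whereas miR-1a-3p was undetected on both day 0 arrays and detected on all 3 day 30 arrays. At day 30 the mean of miR-1a-3p (-5.01 ± 0.67) exceeded those of miR-133b-3p (-5.54 ± 0.06) and miR-133a-3p (-6.51 ± 0.18). It was higher at day 30 than at day 3 (2.14, limma adjusted p = 0.0343) and day 7 (1.88, adjusted p = 0.039). Of all tested miRNAs 9.76% and 13.6% were called higher in these comparisons. miR-208a-3p, miR-208b-3p and miR-499-5p were undetected on every array. The 2 endothelial markers lay between -3.76 and -1.18 at day 0 and between -1.99 and -1.31 on the other arrays. Of the 2 erythroid markers miR-144-3p was undetected on every array and miR-451a was detected on 0 of 2 day 0, 3 of 3 day 3, 1 of 3 day 7 and 3 of 3 day 30 arrays. The lymphocyte marker miR-150-5p was undetected on both day 0 arrays and lower at day 30 than at day 3 (-1.99, limma adjusted p = 0.0289) and day 7 (-2.69, adjusted p = 0.0033). Of the 369 tested miRNAs 21.1% were called lower from day 3 to day 30, and 126 were from day 7 to day 30.

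Other settings moved the size of the changes. With scaling to the dmr control features the change of miR-34a-5p from day 3 to day 7 was 0.11 (limma adjusted p = 0.966). Without scaling the median of the 126 miRNAs was -1.71 in that comparison, so that miR-34a-5p still exceeded it. Of the 13 settings tried on miR-34a-5p its change lay above this median in 13 for day 3 to day 7, day 3 to day 30, day 0 to day 7 and day 0 to day 30. Of the 12 settings tried on miR-210-3p its change lay above the median in 12 for day 0 to day 3 and below it in 12 for day 3 to day 7 and day 3 to day 30. For settings that multiply an array by 1 factor this follows from the arithmetic, since the factor cancels unless the floor replaces a value. The floor did so for the undetected miR-210-3p of day 0 replicate 2 without scaling. From day 0 to day 3 miR-210-3p thus exceeded the median by 2.85 without scaling and by 3.13 in the setting of the text.

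**Figure D5:**
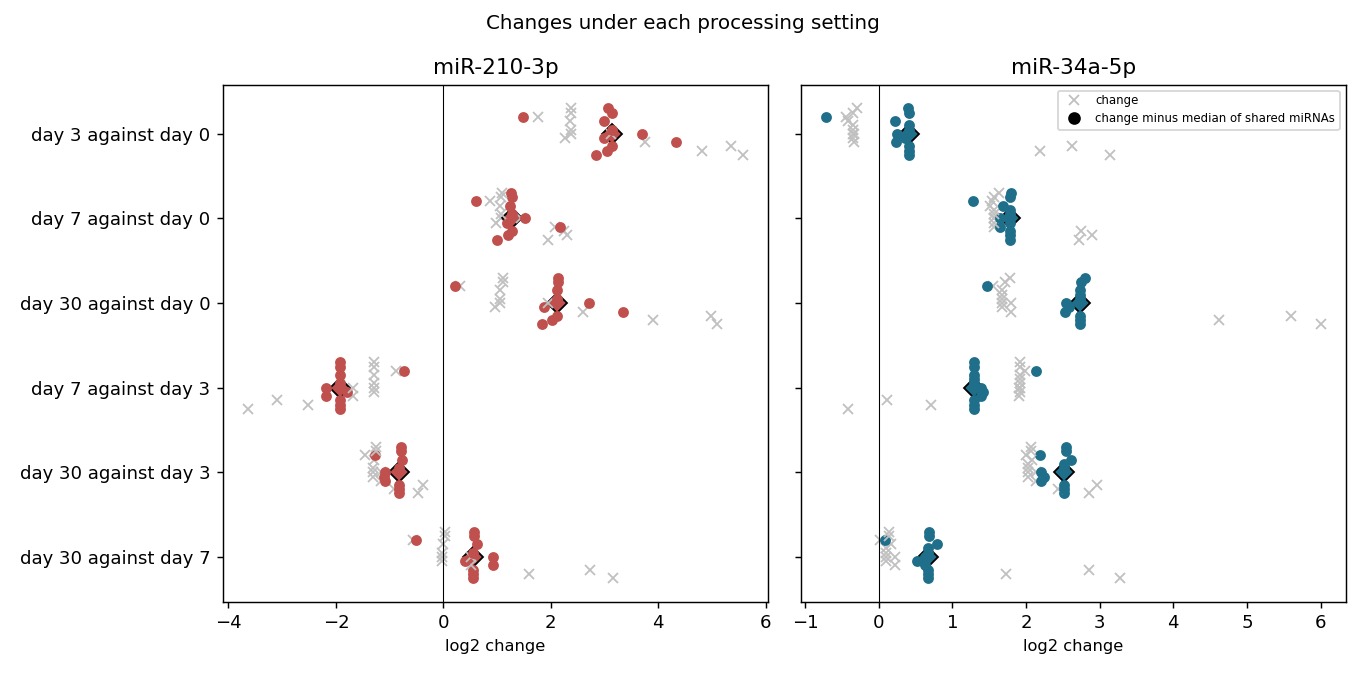
Log2 change of miR-210-3p (left) and miR-34a-5p (right) in each comparison under each processing setting; grey crosses are the changes, filled points the changes minus the median of the 126 shared miRNAs, and diamonds the setting used in the text. The crosses spread with the scaling, for example from -0.42 to 1.99 for miR-34a-5p from day 3 to day 7, whereas the points minus the median lie between 1.29 and 2.14 there.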

How the data were processed

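GFP-positive macrophages were sorted, 100 ng of total RNA was labelled with Cy3 and 11 arrays were hybridised, per the labels' protocols. Images were read with Agilent Feature Extraction, per the submitters' processing notes, in a version that the sources used here do not give. The 11 deposited scanner files hold, per the file headers, a total gene signal (intensity on a linear scale), its error and a detection flag for 1247 miRNAs, and 21 control probes. A table by the authors, used as an alternative, gives log2 values of 317 miRNAs, distributed nearly alike in every column.

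Each signal was divided by the array's 75th percentile, taken over the 126 miRNAs with detection on every array, raised to a floor of 0.00271 (the median of the arrays' lowest detected scaled signals) and logged. The 369 miRNAs with detection on 2 or more of 11 arrays entered 1 linear model over the 4 groups (limma 3.58.1, R 4.3.3, 6 residual degrees of freedom), with moderated tests for 6 comparisons, an F test, Benjamini-Hochberg adjustment over the 369 within each and a call under 0.05. Intervals cover 95%. The tests were tried on simulated data. For day 30 replicates 2 and 3 the median squared log2 difference was 0.0954 times the scanner's error variance, against 0.455 from that error alone and 1.38 to 17.8 for the other 9 pairs of replicates; the mean was 1.65 times, against 2.82 to 44.4. Where a listed miRNA was undetected in a whole group, a bound was taken against the lowest detected signal of each array. Alternatives were scaling, normalization, floor, filter, slide, brightness, replicate number, the authors' values, the samples in the fit and leaving out each array. The rule named both members, the called members of the lists and the 5 miRNAs most like each member. Members, lists and tests were chosen with earlier results of these data known.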

Additional observations from a re-analysis of the deposited data

How the results depend on the processing

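Values here are log2 changes, first day against second. For miR-210-3p, day 3 against day 0 kept its call under all settings tried but the brightness covariate (1.76). Day 7 against day 0 passed with dmr control scaling (2.25). Day 30 against day 0 passed without scaling (5.10), with dmr scaling (4.98), the percentile over all miRNAs (3.91), the authors' deposited values (1.96), the slide block (1.05) and 11 separate arrays (1.11). Day 7 against day 3 no longer passed with quantile normalization (-1.68) or the brightness covariate (-0.89). Day 30 against day 3 no longer passed without scaling (-0.48), with dmr scaling (-0.37), the percentile over all miRNAs (-0.91), quantile normalization (-1.16), the authors' values (-1.16) or no filter (-1.32). Day 30 against day 7 turned positive in these settings: 3.16 unscaled, 2.73 with dmr scaling, 1.60 with the percentile over all miRNAs, 0.52 with quantile normalization, 0.52 with the authors' values and 0.032 with 11 separate arrays.

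For miR-34a-5p, day 3 against day 0 was 3.14 unscaled, 2.63 with dmr scaling and 2.19 with the percentile over all miRNAs, against a negative value in the text. Day 7 against day 0 passed with the percentile over all miRNAs (2.89), dmr scaling (2.75) and no filter (1.57). Day 30 against day 0 no longer passed with the highest floor (1.67), the brightness covariate (1.55) or only the groups compared (1.67). Day 7 against day 3 was -0.42 without scaling, and no longer passed with dmr scaling (0.11), the percentile over all miRNAs (0.70) or the brightness covariate (1.99). Day 30 against day 3 no longer passed with the percentile over all miRNAs (2.43), the highest floor (2.02) or only the groups compared (2.02). Day 30 against day 7 passed without scaling (3.28) and with dmr scaling (2.85). The F test of miR-34a-5p had a limma adjusted p of 0.0540 with the highest floor. The causes of these changes were not tested.

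With each array left out in turn, miR-210-3p ranged from 2.15 to 2.58 (day 3 against day 0), 0.86 to 1.29 (day 7 against day 0), 0.84 to 1.26 (day 30 against day 0), -1.44 to -1.10 (day 7 against day 3), -1.46 to -1.15 (day 30 against day 3) and -0.22 to 0.14 (day 30 against day 7, positive without day 7 replicate 1 or 3 or day 30 replicate 1). In the same order miR-34a-5p ranged from -0.95 to 0.078 (positive without day 3 replicate 2), 1.43 to 1.64, 1.63 to 1.80, 1.49 to 2.52, 1.60 to 2.62 and 0.03 to 0.24. The F tests' adjusted p ranged from 0.00114 to 0.0157 for miR-210-3p and from 0.00208 to 0.0286 for miR-34a-5p (limma), and the exact permutation p of the difference between the members from 0.00556 to 0.0194. A lone sample left in a group was assumed to vary like the others.

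The labels do not say that replicate numbers pair the arrays. Deviations from the group means correlated above 0.1 in 10 of 15 same-numbered pairs, not in all (r from -0.26 to 0.59), and in 9 of 30 pairs with different numbers (r up to 0.63). Of the 11 arrays 5 correlated best with one of their own number. By the rule that every pair should exceed 0.1, the numbers were not taken to pair the samples, which leaves partial pairing possible. Every replicate 1 lay on slide 1 and every replicate 2 on slide 2, so that these correlations cannot separate pairing from slide. Deviations within a group sum to 0, so that the r values also depend on each other. With the replicate number as a block, on 11 separate arrays, miR-210-3p at day 30 against day 0 passed (1.11), day 30 against day 7 was 0.032, and no other call changed. Requiring detection on all arrays gave no value for miR-210-3p, undetected on 1 array.

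The number of miRNAs called by limma, against which the members were read, ranged over these settings from 68 (brightness covariate) to 1110 (no filter) around 204 for day 3 against day 0, from 0 to 1011 (no filter) around 14 for day 7 against day 0, from 0 (brightness covariate, 75 at an unadjusted p under 0.05) to 1109 (no filter) around 208 for day 30 against day 0, from 58 (brightness covariate) to 790 (no filter) around 137 for day 7 against day 3, from 29 (without day 30 replicate 1) to 201 (only the groups compared) around 114 for day 30 against day 3, and from 13 (brightness covariate) to 246 (dmr scaling) around 176 for day 30 against day 7. The 0 for day 7 against day 0 came without day 3 replicate 2 or 3, day 7 replicate 3 or day 30 replicate 1, or with only the groups compared (24 to 125 at an unadjusted p under 0.05). Scaling set the split of these calls: day 3 against day 0 gave 60 higher and 144 lower, but 250 and 1 without scaling and 93 and 63 with quantile normalization. miR-210-3p was not above background on 1 of 2 day 0 arrays.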
